A study of Gallus gallus with 10 samples.

Results

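Genes of G2 and mitosis were followed in chick cranial neural folds that had received a morpholino against NSD3 or a control oligomer. They encode the kinases and cyclins of mitotic entry, the spindle checkpoint, the kinetochore, the chromosomal passenger proteins, condensin, the mitotic spindle and the machinery of cytokinesis. The set holds 38 genes chosen by name for these roles. Of these, 34 had a row in the deposited table of 19168 genes, matched by Ensembl symbol or else by Uniprot symbol, and each of the 34 had 1 row. CCNB2, CENPA, PLK4 and SPC24 were not analysed here. All 34 passed a filter of a mean of at least 1 FPKM (a transcript level normalised for length and sequencing depth), as did 11935 genes in the table.

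The control group was given 0.5 mM of the control morpholino and the other group 0.5 mM of the NSD3 morpholino, an antisense oligomer against the transcript of the histone methyltransferase NSD3. Both groups also received 300 ng/µL of the carrier plasmid pCS2+myc by bilateral electroporation at Hamburger-Hamilton stage 4 to 5, and folds were dissected from embryos of 5 to 7 somites. Each group comprised 5 libraries of poly(A) RNA, and each library pooled the folds of 12 embryos, so values are averages over embryos and over every cell type of the fold.

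Most genes of this set are transcribed late in the cell cycle and their products act in the same division. Entry into mitosis is driven by CDK1 with its A and B cyclins, and the spindle checkpoint holds the cell before anaphase until every kinetochore is attached to microtubules. CDC20 then activates the anaphase-promoting complex, which marks cyclins and other substrates for destruction. In mammalian cells the transcription factors MYBL2 and FOXM1, bound to the MuvB complex, activate many of these genes. The DREAM complex, which shares MuvB, represses them when p53 induces the CDK inhibitor CDKN1A.

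The scaling factor of the libraries, read from the FPKM steps of low genes and called relative depth, ran from 0.887 to 1.29. It was highest in NSD3 morpholino replicate 1. NSD3 averaged 22.9 ± 2.29 FPKM in the control pools and 17.9 ± 1.36 FPKM under its own morpholino (SD, n = 5 each), and the groups did not overlap (exact permutation test, two-sided p = 0.00794, the smallest this design allows). Its limma adjusted p over all genes was 0.055 (log2 fold change -0.34), and 0.117 without control replicates 4 and 5 (-0.24). In the authors' deposited table the NSD3 log2 value is -0.35 (adjusted p 0.00439). These are RNA levels, and NSD3 protein was not measured here. Neural crest and neural fold markers passed the filter in 11 of 11 cases, with summed levels of 1314 to 2218 FPKM in control pools and 1059 to 1393 FPKM in NSD3 morpholino pools. All 11 had estimates below 0 (median -0.39), beside 50.6% of all genes. SOX9, TFAP2B and ZIC1 were called lower (log2 fold changes of -0.95, -0.66 and -0.77), where 2.52% of all genes were called. For 6 of the 11, control replicates 4 and 5 both lay above control replicates 1 to 3. SOX9 was not called without control replicates 4 and 5 (adjusted p 0.0852). Non-neural ectoderm markers summed to 275 to 341 FPKM in control pools and 320 to 373 FPKM in NSD3 morpholino pools. Markers of differentiated neurons summed to 308 to 486 and 283 to 330 FPKM. No gene of these lists was called with all pools, and DCX of the neuron list was called lower without control replicates 4 and 5 (-0.52). Of 5 endoderm markers with a row 0 passed, and their sum lay between 0.672 and 2.48 FPKM over the pools. Blood and endothelium markers summed to 9.76 to 19.9 FPKM in control pools and 11.2 to 18.8 FPKM in NSD3 morpholino pools, and head mesenchyme markers to 10.7 to 14.8 and 13.9 to 22.1 FPKM, with FOXC2 called higher (0.76). The part of these marker levels in the results was not tested. Control replicates 4 and 5 stood apart from the other controls: both lay below control replicates 1 to 3 for 27.7% of the tested genes and both above for 26.5%. Results are therefore given with and without these 2 pools.

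The comparison of the groups addressed the level of the G2 and mitosis genes under the NSD3 morpholino. None of the 34 was called higher or lower at an adjusted p under 0.05 (limma on log2(FPKM + 0.5), Benjamini-Hochberg over 11935 genes), against 2.52% of all tested genes. At an unadjusted p under 0.05 there were 5 members, all with lower values, which is 14.7% of the set against 18.1% of all tested genes. The estimated log2 fold changes ran from -0.29 for PRC1 to 0.30 for TTK. Their median was -0.05, beside -0.003 over all genes, and 20 of 34 (58.8%) were below 0, beside 50.6% of all genes. In pooled tissue, fewer dividing cells and less RNA per dividing cell cannot be told apart.

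The intervals show how large a difference these data allow. For 34 of 34 members the 95% confidence interval stayed within 2-fold in either direction. It reached 1.5-fold for 1 member, TTK, whose interval ran from -0.06 to 0.65 on the log2 scale. Without control replicates 4 and 5 it reached 1.5-fold for 3 members, all on the lower side, with lower bounds of -0.74 for CENPF, -0.63 for NDC80 and -0.59 for CENPE, and for 0 members 2-fold. The narrowest part of the set included BIRC5 (-0.13 to 0.10), TPX2 (-0.21 to 0.01) and NCAPD2 (-0.19 to 0.08). The authors' deposited table of differential genes held 674 genes, beside 19168 in the table of FPKM, and 0 of the 34. With so small a share of all genes listed, 0 of 34 is no result about the set.

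**Figure D1:**
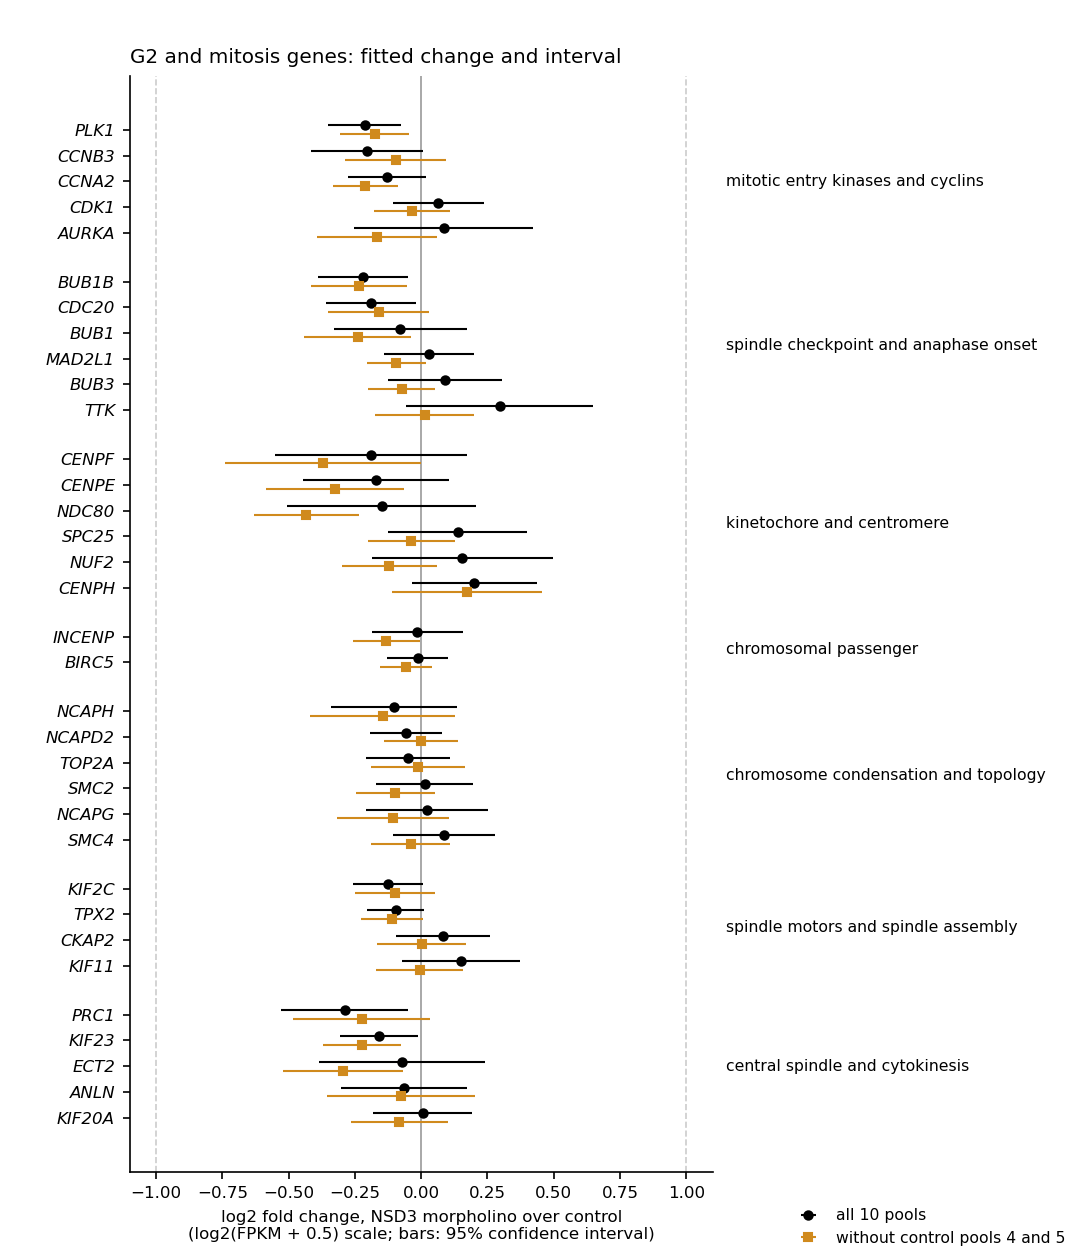
Fitted log2 fold change of each of the 34 genes (x axis, log2(FPKM + 0.5) scale, NSD3 morpholino over control) with its 95% confidence interval, ordered by role, from all 10 pools (black circles) and without control pools 4 and 5 (orange squares). Dashed lines mark 2-fold. No interval reaches them, and 20 of the black circles but 31 of the orange squares lie below 0.

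Among the 5 genes of mitotic entry, 3 estimates were below 0 with all pools, and 5 without control replicates 4 and 5. CDK1, the kinase that starts mitosis, stood at 207, 214, 243, 177 and 194 FPKM in control replicates 1 to 5 and at 205, 207, 229, 212 and 225 FPKM in NSD3 morpholino replicates 1 to 5. The morpholino pools lay inside the control range, and the estimated log2 fold change was 0.07 (interval -0.11 to 0.24), or -0.04 without control replicates 4 and 5. CCNA2, its A-type cyclin, stood at 91.8, 100, 105, 81.3 and 90.2 FPKM in controls and at 87.4, 85.4, 84.0, 84.3 and 85.6 FPKM with the NSD3 morpholino. The morpholino pools were tightly grouped, with a coefficient of variation of 1.57% against 9.75% in controls, and the groups overlapped. CCNB3, a B-type cyclin, stood at 106, 124, 103, 122 and 146 FPKM in controls and at 93.2, 102, 108, 97.3 and 118 FPKM with the NSD3 morpholino, an estimate of -0.21 (adjusted p 0.293). Without control replicates 4 and 5 the estimate of CCNB3 was -0.10.

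PLK1, a kinase of mitotic entry, spindle assembly and cytokinesis, had the smallest p of the set. It stood at 142, 150, 144, 144 and 167 FPKM in controls and at 123, 126, 136, 121 and 138 FPKM with the NSD3 morpholino. Every morpholino pool lay below every control pool. PLK1 was the 1 member of 34 (2.94%) without overlap on the lower side, beside 2.36% of all tested genes, and 0 members were without overlap on the higher side, beside 3.68%. Its log2 fold change was -0.21 (SE 0.0634, interval -0.35 to -0.07), with a limma adjusted p of 0.104 and a range of 0.0505 to 0.222 over 20 alternatives. AURKA, the kinase of centrosome maturation, stood at 54.1, 63.4, 68.1, 42.4 and 37.2 FPKM in controls and at 51.6, 54.2, 61.5, 61.3 and 47.1 FPKM with the NSD3 morpholino. The 2 lowest pools were control replicates 4 and 5, and the estimate went from 0.09 with all pools to -0.17 without those 2.

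Of the 6 genes of the spindle checkpoint and anaphase onset, 3 had estimates below 0 and 3 above with all pools, and 5 were below 0 without control replicates 4 and 5. CDC20, the activator of the anaphase-promoting complex, stood at 162, 192, 183, 177 and 199 FPKM in controls and at 137, 167, 178, 157 and 163 FPKM with the NSD3 morpholino. The groups overlapped, with an estimate of -0.19 (adjusted p 0.230). BUB1B, which encodes the checkpoint protein BubR1, stood at 42.2, 51.2, 48.9, 42.4 and 50.4 FPKM in controls and at 40.1, 35.8, 43.7, 40.05 and 41.4 FPKM with the NSD3 morpholino. Of the morpholino pools, replicate 3 alone lay above the lowest control, and the estimate was -0.22 (interval -0.39 to -0.05, adjusted p 0.162).

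In TTK, MAD2L1, BUB1 and BUB3, control replicates 4 and 5 were the lowest controls. TTK, the kinase that starts checkpoint signalling at kinetochores, stood at 25.3, 23.4, 29.5, 16.9 and 14.5 FPKM in controls and at 24.7, 25.4, 27.8, 27.7 and 25.3 FPKM with the NSD3 morpholino. Control replicates 4 and 5 were the 2 lowest of the 10 pools, and the estimate of 0.30 became 0.01 without them (adjusted p 0.370 and 0.950). MAD2L1, the checkpoint protein that binds CDC20, stood at 162, 165, 166, 134 and 132 FPKM in controls and at 153, 161, 159, 152 and 145 FPKM with the NSD3 morpholino. BUB1, a kinase of the same pathway, stood at 44.1, 50.8, 48.2, 38.1 and 33.7 FPKM in controls and at 36.9, 37.8, 45.3, 45.2 and 37.0 FPKM with the NSD3 morpholino. For both genes the morpholino pools lay within the control range. BUB3, the partner of BUB1 and BUB1B, averaged 72.8 ± 11.5 and 76.8 ± 2.97 FPKM (SD, n = 5 each). The estimate of MAD2L1 went from 0.03 to -0.09 without control replicates 4 and 5, and that of BUB3 from 0.09 to -0.07.

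**Figure D2:**
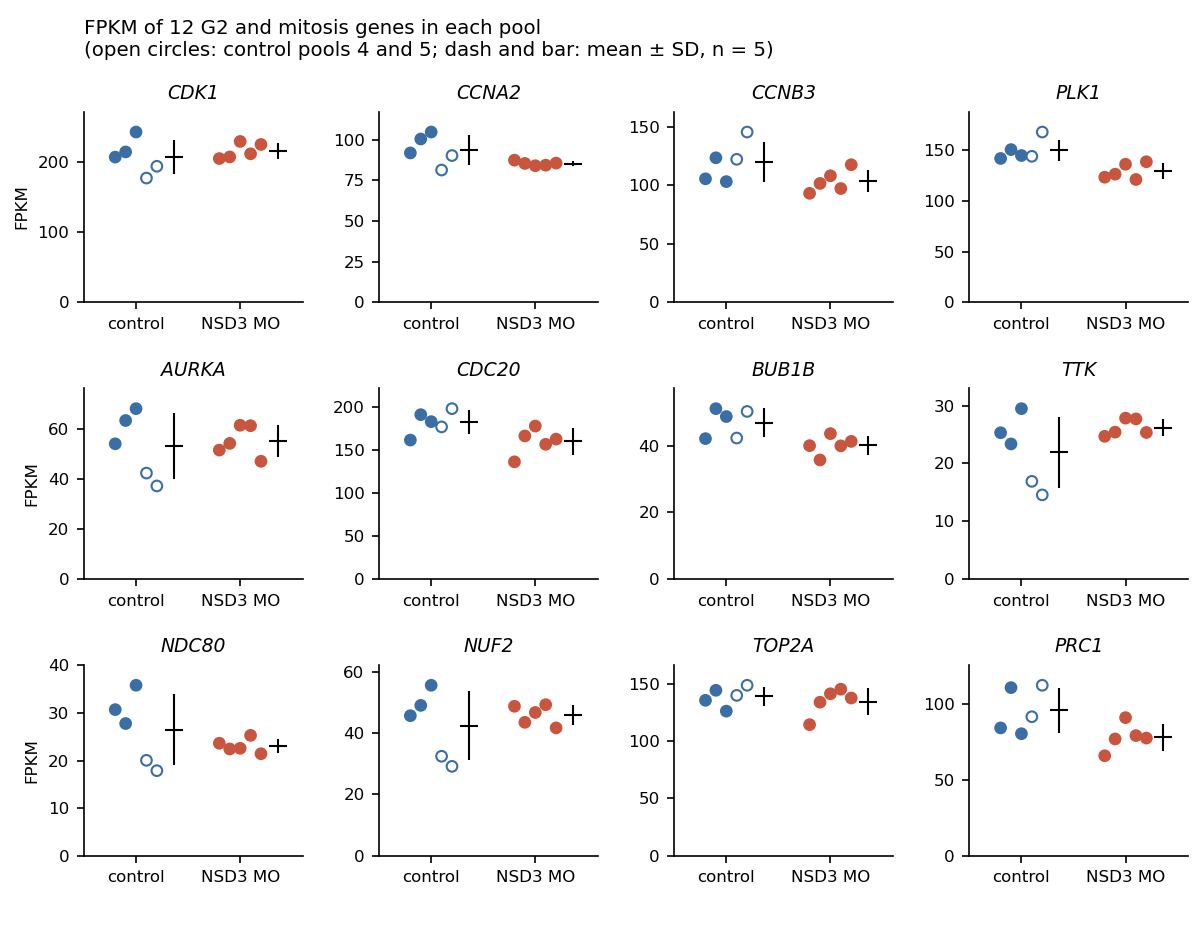
FPKM (y axis, from 0) of 12 genes in each pool, by group, with control pools 4 and 5 as open circles and the mean ± SD of 5 pools beside each group. The PLK1 groups do not overlap, while for CDK1, AURKA, TTK, NDC80 and NUF2 the 2 open circles are the lowest of the 10 pools.

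Kinetochore genes varied widely within the controls, with control replicates 4 and 5 below the others in 5 of 6. NDC80, a subunit of the NDC80 complex that binds microtubules, stood at 30.7, 27.8, 35.8, 20.05 and 17.9 FPKM in controls and at 23.6, 22.4, 22.6, 25.3 and 21.4 FPKM with the NSD3 morpholino. The 5 morpholino pools lay below control replicates 1 to 3 and above control replicates 4 and 5. With all pools the estimate was -0.15 (interval -0.50 to 0.21, adjusted p 0.686). Without control replicates 4 and 5 it was -0.43 (interval -0.63 to -0.24, adjusted p 0.0322), the 1 member called in that setting. That is 2.94% of the set against 2.91% of the 11904 genes tested there.

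NUF2, the partner of NDC80 in the same complex, stood at 45.6, 49.0, 55.5, 32.4 and 29.1 FPKM in controls and at 48.7, 43.5, 46.7, 49.2 and 41.6 FPKM with the NSD3 morpholino. SPC25, a subunit at the other end of the complex, averaged 24.3 ± 4.38 and 26.5 ± 1.97 FPKM (SD, n = 5 each). Unlike NDC80, both had estimates above 0 with all pools (0.16 and 0.14), and without control replicates 4 and 5 the estimates were -0.12 and -0.04. CENPE, a kinetochore motor, averaged 14.2 ± 2.503 and 12.5 ± 1.70 FPKM, and CENPF, a large kinetochore protein, 11.7 ± 2.502 and 10.2 ± 2.24 FPKM. Without control replicates 4 and 5 the estimate of CENPE went from -0.17 to -0.33 and that of CENPF from -0.19 to -0.37. CENPH, of the inner kinetochore, stood at 9.02, 10.1, 8.29, 8.72 and 8.60 FPKM in controls and at 13.5, 8.86, 9.73, 10.04 and 10.1 FPKM with the NSD3 morpholino. Replicate 1 of the morpholino group was its highest pool, and the estimate was 0.20 (adjusted p 0.361).

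Ratios between members do not depend on how a library was scaled. The TTK to NDC80 ratio of FPKM was 0.823, 0.841, 0.822, 0.842 and 0.814 in control replicates 1 to 5, which is 0.828 ± 0.0124 (SD, n = 5), although both genes differed by over 1.5-fold among those pools. With the NSD3 morpholino it was 1.04, 1.13, 1.23, 1.09 and 1.18, which is 1.14 ± 0.0736 (SD, n = 5). The groups did not overlap, and control replicates 4 and 5 gave the highest and the lowest of the control ratios. For NUF2 to NDC80 the ratio was 1.61 ± 0.104 in controls and 1.99 ± 0.0667 with the NSD3 morpholino (SD, n = 5 each), again without overlap. The ratio of SPC25 to NDC80, within the same complex, overlapped: it ran from 0.787 to 1.14 in controls and from 1.02 to 1.31 with the NSD3 morpholino. The TTK and NUF2 ratios were picked after their values were seen, among 561 pairs of members of which 25 (4.46%) had groups without overlap. The share over pairs of all tested genes is not given here, so the 4.46% has no background to be read against. Many of the pairs also share a member. The ratios are therefore given as a description with no test.

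**Figure D3:**
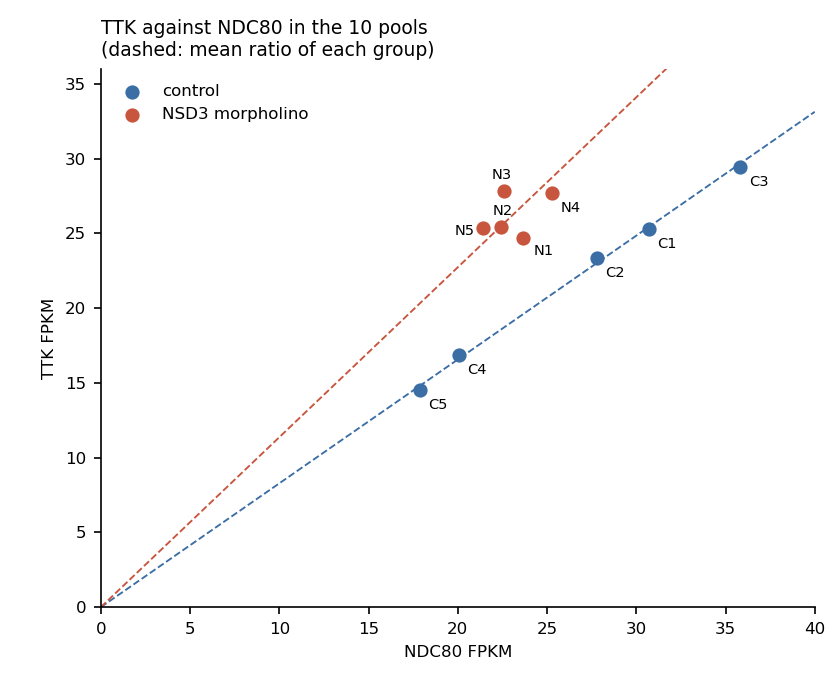
FPKM of TTK (y axis) against NDC80 (x axis) in the 10 pools (C, control; N, NSD3 morpholino; number, replicate), with dashed lines at the mean ratio of each group. The 5 controls lie along a ratio of 0.828 from the lowest to the highest pool, and the 5 NSD3 morpholino pools lie above that line around 1.14.

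The chromosomal passenger proteins act with Aurora B at centromeres and the spindle midzone. BIRC5, which encodes survivin, stood at 185, 191, 188, 165 and 183 FPKM in controls and at 178, 181, 177, 186 and 181 FPKM with the NSD3 morpholino. Its groups overlapped, with a coefficient of variation of 2.05% among the morpholino pools. INCENP, the scaffold of the passenger complex, averaged 68.4 ± 7.51 and 67.4 ± 3.51 FPKM (SD, n = 5 each). Its estimate went from -0.02 to -0.13 without control replicates 4 and 5.

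Of the 6 genes of chromosome condensation, 3 estimates were below 0 with all pools and 6 without control replicates 4 and 5. TOP2A, the topoisomerase that untangles sister chromatids, stood at 136, 144, 126, 140 and 149 FPKM in controls and at 114, 134, 141, 145 and 138 FPKM with the NSD3 morpholino. Only replicate 1 of the morpholino group lay below the lowest control. The condensin subunits SMC2, SMC4, NCAPG, NCAPH and NCAPD2 had log2 fold changes of 0.01, 0.09, 0.02, -0.10 and -0.06, with a smallest adjusted p of 0.659. SMC2, the most abundant of them, averaged 60.8 ± 7.85 and 61.0 ± 2.59 FPKM (SD, n = 5 each).

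Of the 4 spindle motors and assembly factors, 2 estimates were below 0 with all pools and 3 without control replicates 4 and 5, where CKAP2 stood at 0.003. KIF11, the kinesin that pushes spindle poles apart, stood at 64.8, 64.2, 79.3, 52.9 and 52.1 FPKM in controls and at 67.2, 69.4, 66.0, 72.0 and 69.4 FPKM with the NSD3 morpholino. Control replicates 4 and 5 were again its lowest pools, and its estimate of 0.15 was -0.01 without them. KIF2C, a microtubule depolymerase, stood at 43.2, 46.4, 48.4, 47.8 and 48.2 FPKM in controls and at 39.9, 40.6, 45.2, 43.7 and 45.1 FPKM with the NSD3 morpholino, an estimate of -0.13 (adjusted p 0.307). TPX2, the activator of Aurora A, stood at 148, 155, 151, 145 and 151 FPKM in controls and at 132, 138, 143, 139 and 150 FPKM with the NSD3 morpholino. In the morpholino group 3 pools of KIF2C and 1 pool of TPX2 lay above the lowest control. CKAP2, a microtubule-associated protein, averaged 74.1 ± 7.56 and 78.3 ± 6.25 FPKM (SD, n = 5 each).

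The genes of the central spindle and cytokinesis had 4 of 5 estimates below 0 with all pools, and 5 of 5 without control replicates 4 and 5. PRC1, which bundles the microtubules of the midzone, stood at 84.4, 111, 80.6, 91.8 and 113 FPKM in controls and at 66.0, 77.1, 91.2, 79.3 and 77.7 FPKM with the NSD3 morpholino. The groups overlapped through replicate 3 of the morpholino group, with an estimate of -0.29 (interval -0.53 to -0.05, adjusted p 0.197). KIF23, the kinesin of centralspindlin, stood at 35.6, 35.9, 37.7, 33.3 and 31.7 FPKM in controls and at 29.7, 30.0, 33.5, 32.8 and 29.7 FPKM with the NSD3 morpholino, an estimate of -0.16 (adjusted p 0.242). KIF20A, the kinesin that brings passenger proteins to the midzone, stood at 61.5, 77.2, 67.2, 55.9 and 61.1 FPKM in controls and at 60.8, 62.5, 70.2, 68.7 and 60.8 FPKM with the NSD3 morpholino. Both groups of KIF20A averaged 64.6 FPKM, with an interval of -0.18 to 0.19. ECT2, the activator of RhoA at the cleavage site, averaged 14.7 ± 3.58 and 13.7 ± 1.08 FPKM, and the ring scaffold ANLN 24.9 ± 1.98 and 24.0 ± 4.06 FPKM (SD, n = 5 each). Without control replicates 4 and 5 the estimate of ECT2 went from -0.07 to -0.29 and that of ANLN from -0.06 to -0.08.

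Levels within the set were spread widely. In controls the highest median was 207 FPKM for CDK1, followed by BIRC5 with 185 FPKM and CDC20 with 183 FPKM. CDK1 lay above BIRC5 in every control pool, while the order of CDC20 against either gene differed between pools. These levels were not tested against each other. Median levels over 100 FPKM were found for 8 of 34 genes. The lowest were CENPH with 8.72 FPKM and CENPF with 10.97 FPKM, beside a median of 11.9 FPKM over all tested genes.

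Among the 10 pools the set moved more with the individual control pool than with the group. On average over members, the deviation from the 10-pool mean of log2(FPKM + 0.5) was 0.03, 0.16, 0.13, -0.11 and -0.13 in control replicates 1 to 5 and -0.09, -0.06, 0.06, 0.05 and -0.04 in NSD3 morpholino replicates 1 to 5. The morpholino pools thus lay inside the control range. Control replicate 2 was above the 10-pool median for 31 of 34 genes, and NSD3 morpholino replicate 1 for 7. Control replicates 4 and 5 both lay below control replicates 1 to 3 for 21 members (61.8%, beside 27.7% of all genes). They both lay above for 1 member, NCAPD2 (2.94%, beside 26.5%). The lower position was not particular to the set: it held for 75 of 152 tested genes (49.3%) in 7 further cell cycle lists, described below. The kinetochore role held 5 of the 21, the checkpoint 4, and mitotic entry, condensation and cytokinesis 3 each. PLK1, CCNB3, CDC20, BUB1B and PRC1 were among the 12 genes in neither count, and control replicate 5 was the highest of all pools for PLK1, CCNB3, CDC20, PRC1 and TOP2A.

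**Figure D4:**
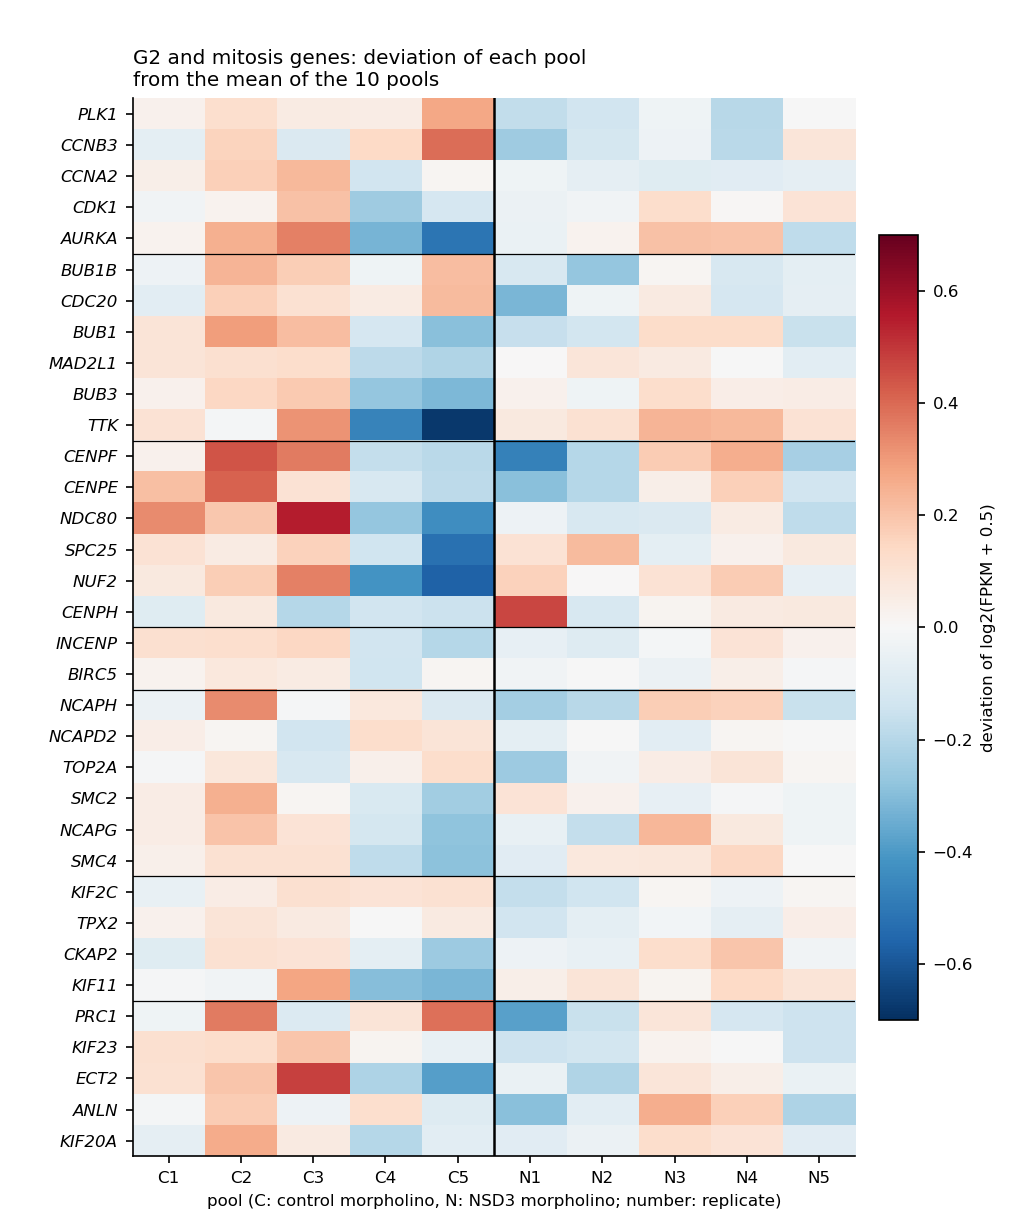
Deviation of log2(FPKM + 0.5) from the mean of the 10 pools for each gene (rows, by role) in each pool (columns: C, control; N, NSD3 morpholino; number, replicate), red for higher and blue for lower. C4 and C5 are blue for most kinetochore and checkpoint genes and C5 is red for PLK1, CCNB3 and PRC1.

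The spread was wider among controls for 26 of 34 members (76.5%, beside 70.2% of all genes). The median coefficient of variation of the set was 12.5% in controls, 7.08% with the NSD3 morpholino and 8.43% in control replicates 1 to 3. Without control replicates 4 and 5, 31 of 34 estimates (91.2%) were below 0, beside 51.4% of all genes, with a median of -0.10. In that setting 10 members (29.4%), all lower, had an unadjusted p under 0.05, beside 20.4% of all genes, and NDC80 was the 1 call. After NDC80, the smallest adjusted p there were 0.0671 for CCNA2 (-0.21) and 0.0975 for KIF23 (-0.22). Control replicates 4 and 5 both lay below control replicates 1 to 3 for 21 members, NDC80 among them. Leaving these pools out lowered the estimates of those members by construction. The counts and the call in that setting thus depend on which pools were left out, and are no separate test of the set. Members that moved together in those pools are also not independent of each other.

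The other genes of the pathway were read from lists of regulators and partners. A first 5 lists covered mitotic entry, the anaphase-promoting complex, kinetochores, spindle and cytokinesis, and condensin and cohesin. Of their 104 tested genes, 0 were called by limma in either direction, beside 2.52% of all genes. At an unadjusted p under 0.05 there were 6 lower and 2 higher (7.69% of the 104, beside 18.1% of all genes), and their median log2 fold change was -0.01. Without control replicates 4 and 5, 3 of them (2.88%) were called lower, beside 2.91% of all genes called in that setting: CENPQ (-0.36), CENPW (-0.44) and HJURP (-0.55), the last a loading factor of the centromeric histone.

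FOXM1, the transcription factor of G2 genes, was the regulator with the smallest p. It stood at 26.02, 29.5, 27.5, 26.8 and 25.49 FPKM in controls and at 17.9, 19.8, 25.47, 22.6 and 19.9 FPKM with the NSD3 morpholino, and the groups were separated narrowly, by the last control pool and the third morpholino pool. The limma estimate of -0.36 (adjusted p 0.0657) missed the threshold with all pools. It passed when FPKM were rescaled to the same total (adjusted p 0.0373), with library weights (0.0445) and without NSD3 morpholino replicate 3 (0.0349). FOXM1 did not pass in the other alternatives. Its adjusted p was 0.0768 without control replicates 4 and 5, and at most 0.163, without NSD3 morpholino replicate 2. In the authors' deposited table the listed log2 value is -0.36 (adjusted p 0.0134). MYBL2, its partner on MuvB, averaged 31.9 ± 1.69 and 32.8 ± 1.17 FPKM (SD, n = 5 each).

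CCNB1, the main B-type cyclin of vertebrate cells, averaged 229 ± 14.7 FPKM in control and 256 ± 11.2 FPKM in NSD3 morpholino pools, a log2 fold change of 0.17 (adjusted p 0.154). CCNA2 and CCNB3 had estimates below 0, and none of these cyclins was called. KIFC1, a minus-end kinesin of the spindle, averaged 64.5 ± 5.44 and 52.1 ± 5.88 FPKM (limma adjusted p 0.0815). It passed with library weights (adjusted p 0.0390) and without NSD3 morpholino replicate 3 (0.0475), and in no other alternative. In the authors' deposited table its log2 value is -0.31 (adjusted p 0.0310). SASS6, a centriole assembly protein, averaged 30.6 ± 6.75 and 40.5 ± 2.85 FPKM (adjusted p 0.112). It passed without control replicate 3 (0.0307) and in no other alternative. CDC26, a subunit of the anaphase-promoting complex, averaged 13.97 ± 0.939 and 11.6 ± 0.591 FPKM (adjusted p 0.0840).

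UBE2C, the ubiquitin-conjugating enzyme of that complex, had a log2 fold change of -0.17 (adjusted p 0.330). In the kinetochore list CENPP stood at 0.25 (adjusted p 0.334) and MAD2L1BP, which helps silence the checkpoint, at 0.17 (adjusted p 0.386). In the cohesin list PDS5A stood at -0.17 (adjusted p 0.309) and WAPL, the cohesin release factor, at -0.07 (adjusted p 0.668).

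The list of DREAM and MuvB held 12 tested genes, of which 0 were called, beside 2.52% of all tested genes. These are RNA levels, and neither assembly of the DREAM complex nor repression by it was measured. RBL1, a pocket protein of the complex, averaged 31.5 ± 1.65 and 27.6 ± 2.49 FPKM (adjusted p 0.207), and DYRK1A, the kinase that promotes its assembly, 28.7 ± 2.45 and 31.9 ± 3.23 FPKM (adjusted p 0.395). RBL2, E2F4 and LIN54 had log2 fold changes of -0.02, -0.02 and -0.08. Among 36 genes of G1 and S phase 0 were called, beside the same 2.52%, with a median of 0.05. Over the 5 lists above and the DREAM and G1/S lists together, 14 of 152 genes had an unadjusted p under 0.05. That is 9.21%, beside 18.1% of all genes. TYMS of the G1 and S list was called lower without control replicates 4 and 5 (-0.56), where 2.91% of all genes were called. RRM2, of nucleotide synthesis, stood at 0.25 (unadjusted p 0.00794, adjusted p 0.0927 to 0.265 over the alternatives) and the flap nuclease FEN1 at 0.18 (adjusted p 0.119), both above 0.

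In the list of p53-linked arrest genes 4 of 13 rose and 0 fell by limma, where 2.52% of all genes were called. With all pools the estimates of 7 of the 13 were below 0, with a median of -0.03. Without control replicates 4 and 5 the median was 0.16. For 9 of the 13 these 2 pools both lay above control replicates 1 to 3, as for 26.5% of all genes. GADD45A, a stress-induced gene of this list, had a limma estimate of -0.57 (adjusted p 0.168) and is listed as lower in the authors' deposited table (-0.63, adjusted p 0.0382). CDKN1A, the CDK inhibitor p21, rose from 2.64 ± 0.962 to 28.2 ± 4.62 FPKM (10.7-fold, limma adjusted p 3.68e-06), and CCNG1, a p53-induced cyclin, rose 2.46-fold (adjusted p 2.04e-06). MDM2 rose 1.86-fold and SESN1 2.37-fold. These fold values are ratios of mean FPKM. SFN was called higher as well without control replicates 4 and 5 (0.70, adjusted p 0.0429). In the same pools the estimates of the G2 and mitosis genes lay between -0.29 and 0.30 on the log2 scale, with 0 calls. The limma log2 fold change of CDKN1A was 3.23 with all pools and 3.52 without control replicates 4 and 5. That of the set's median member was -0.05 and -0.10. Whether the level of CDKN1A bears on the set was not tested.

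**Figure D5:**
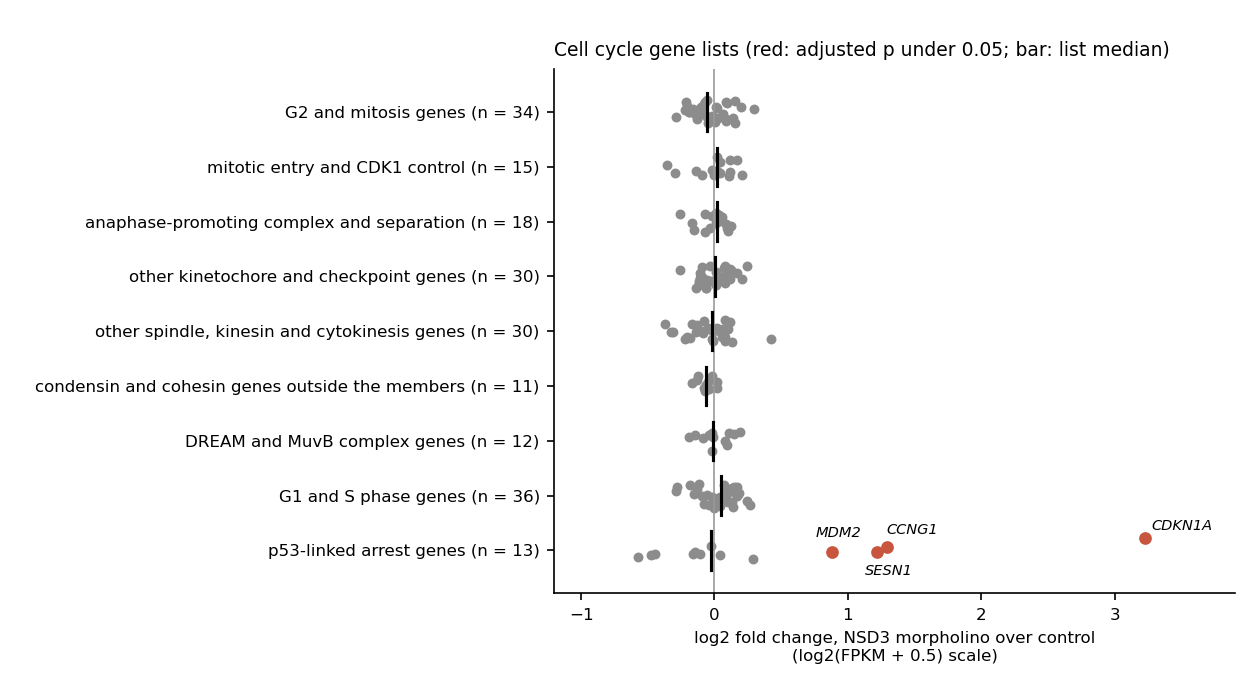
Log2 fold change (x axis, log2(FPKM + 0.5) scale, NSD3 morpholino over control) of each tested gene in the G2 and mitosis set and 8 further lists, with the list median as a black bar and genes with an adjusted p under 0.05 in red. The red points are CDKN1A, CCNG1, SESN1 and MDM2 of the p53-linked list, and the median of the G2 and mitosis set is -0.05.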

How the data were processed

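Each library was a pool of 12 embryos, with its group and number read from its title. FPKM values of 10 libraries stand in a table that the authors deposited. Trimmomatic 0.32, STAR 2.5.3a and DESeq2 1.28.1 with build GRCg6a are named in the submitters' processing notes, while no source used here gives the counting tool or gene annotation. A second table, of differential genes that the authors deposited, gives a log2 fold change and an adjusted p-value per gene.

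FPKM is not a count, so log2(FPKM + 0.5) was fitted with limma 3.58.1 in R 4.3.3, with a mean-variance trend and the group as the only term. Testing covered genes whose FPKM averaged 1 or more, two-sided, with Benjamini-Hochberg adjustment over all genes tested and calls under 0.05. Confidence intervals are limma's 95% intervals, gene by gene. Simulated data with 2-fold changes and independent noise were used to check the fit. They do not show what the fit recovers at the smaller changes estimated for the members. Tables and figures used Python 3.11.15 with pandas 2.3.3 and matplotlib 3.10.9.

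Symbols were the Ensembl symbol, else the Uniprot symbol, of the FPKM table. The members and lists were chosen with earlier results of these data known. Values per pool are given for the 10 members with the smallest p and for members fixed by role; TTK, NUF2, CENPQ, CENPW, HJURP, TYMS, SFN and GADD45A were added after their values were seen. Of each further list the 2 genes with the smallest p, or up to 4 called genes, are named, with FOXM1, MYBL2 and DREAM genes. Read totals were not used here. At most 0.142% of tested genes had identical values in any 2 libraries of a group. Alternatives were 2 pseudocounts, 2 filters, 2 scalings, no trend, library weights, a replicate block, and leaving out each library or control replicates 4 and 5.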

Additional observations from a re-analysis of the deposited data

Results flagged for a closer look

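In 70 groups of 5 pools, those of the 34 genes and NSD3 in each condition, 2 had a pool far from the other 4 by Dixon's test at the 95% level, a test that chance passes in about 1 in 20 groups. CENPH stood at 13.5 FPKM in NSD3 morpholino replicate 1, with the other 4 pools of that group between 8.86 and 10.1 FPKM. BIRC5 stood at 165 FPKM in control replicate 4, with the other controls between 183 and 191 FPKM.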

How the results depend on the processing

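The count of G2 and mitosis genes called was 0 in 19 of 20 alternatives, and 1 lower (NDC80) without control replicates 4 and 5. The number with an unadjusted p under 0.05 ran from 2 to 10. The median log2 fold change of the set ran from -0.10 to -0.01 over the alternatives, from -0.07 to -0.01 when 1 library was left out, and was -0.10 with FPKM rescaled to the same total, where the median of all genes went from -0.003 to -0.05 and 24 of 34 members were below 0. Direction held in all alternatives for 15 members below 0 and 3 above (TTK, CENPH and CKAP2), and the sign differed in at least 1 alternative for the other 16. TTK and CKAP2 stood at only 0.01 and 0.003 without control replicates 4 and 5. The alternatives reuse the same pools, and the share of all genes whose direction held is not given here. Over all genes, 179 were higher and 122 lower. Library weights gave 344 and 207, and leaving out 1 library gave 69 to 211 and 32 to 151. Rescaling to the same total lowered the share of higher genes among calls from 59.5% to 41.9%. NSD3 passed the threshold with a filter of 5 FPKM (-0.34, adjusted p 0.048) and with rescaling to the same total (-0.39, adjusted p 0.036). It did not pass without control replicates 4 and 5 (-0.24, adjusted p 0.117), and its largest adjusted p over the alternatives was 0.143. With the replicate number as a block, 97 genes were higher and 62 lower and 0 members were called. Deviations of same-numbered libraries correlated between -0.13 and 0.34, over 0.1 in 2 of 5 pairs. Of the 10 libraries, 4 correlated best with their own number, both libraries of replicate 1 (0.21) and of replicate 5 (0.34). Whether same-numbered libraries shared more than a number was not tested. The cause of the differences between settings was not tested.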
